A study of Mus musculus with 12 samples.

Results

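The response of mouse macrophages to bacterial lipopolysaccharide (LPS) in the presence of 3′-sialyllactose (3′SL) was described from 6 of the 12 RNA-Seq libraries of the series, the 3 given 3′SL and the 3 given LPS + 3′SL. The libraries were chosen by their labelled intervention, which writes 3′SL as HMO (human milk oligosaccharide), and 14308 genes with enough counts were tested in them. The cells were bone marrow–derived macrophages (BMDMs) kept for 6 hours with 3′SL at 100 μg/mL, alone or with LPS at 10 ng/mL. The other 6 libraries, 3 given PBS (the vehicle) and 3 given LPS alone, served to set the same response without 3′SL beside it. The sample labels name the cells as macrophages, do not give the strain, age or sex of the mice or say which libraries share an animal or a culture, and describe injections of living mice as the treatment. The p-values below therefore measure the spread between these libraries, which may be technical.

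LPS, a glycolipid of Gram-negative bacteria, is bound on the macrophage surface by TLR4 with its partners CD14 and MD-2. The receptor signals through MYD88 to NF-κB and MAP kinases, which drive cytokine genes, and through TRIF to IRF3, which drives interferon-β. Interferon-β then acts back on the cells through its receptor and STAT factors, so that a macrophage given LPS expresses inflammatory genes and antiviral genes side by side. 3′SL is a trisaccharide of milk, lactose with a sialic acid on its galactose.

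The deposited files held 20411741 to 23352909 reads counted on genes per library with 3′SL and 21947552 to 25789130 with LPS + 3′SL. Levels are given as CPM, read counts scaled to a common library size with trimmed means of M values (TMM) and not corrected for transcript length, and changes as log2 of the fold change from edgeR with the standard error (SE). The listed macrophage markers, among them Lyz2, Csf1r, Cd68 and Adgre1, summed to 21052 to 26257 CPM with 3′SL and 26711 to 32987 CPM with LPS + 3′SL, against 13.9 to 16.6 and 11.7 to 20.7 CPM for lymphocyte markers. Stromal markers such as Col1a1 summed to 1427 CPM in the first 3′SL library and 1543 CPM in the first LPS + 3′SL library, and to at most 266 CPM in the other libraries of both groups. The 12 libraries fell into 3 sets, each with 1 library of every condition, whose deviations from the condition means correlated at 0.596 on average within a set and −0.346 between sets. The labels do not name such sets, and replicate numbers here give the set.

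LPS changed 4171 of the 14308 genes tested (29.2%) in the presence of 3′SL when a call needed an adjusted p under 0.05 together with a 1.5-fold change or more, 2051 of them higher (14.3% of the genes tested) and 2120 lower (14.8%). The rises were the larger changes. Of the genes called higher, 780 changed at least 4-fold, 242 at least 16-fold and 79 at least 64-fold, while 387, 29 and 6 of the genes called lower fell that far. The median change of the called genes was 2.98-fold upward and 2.24-fold downward, and the median over all genes tested was −0.07 on the log2 scale. The libraries of the 2 conditions did not overlap for 2036 of the genes called higher and 2038 of those called lower, where 46.6% of all tested genes did not overlap. The change had the same sign in all 3 library sets for 2049 of the genes called higher and 2113 of those called lower. The calls were made on these same libraries, so the sign counts are no separate test. Blocking on the library sets gave 2350 genes higher and 2770 lower, and the count with this block is given beside a gene list where it differed by over 1.5 times. In these bulk samples fewer cells of a type and less RNA per cell cannot be told apart.

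The genes called higher took 15.3% to 17% of the counted reads with 3′SL and 38.9% to 45.9% with LPS + 3′SL. The 242 genes that rose at least 16-fold went from 0.147% to 0.401% of the reads to 7.91% to 10.8%, and the genes called lower went from 10.0% to 11.5% of the reads to between 2.97% and 4.13%. With this shift the scaling decided how the calls split. After TMM 49.2% of the calls were higher, with DESeq2's size factors 51.8%, and with total counts alone 21.8%, or 1350 higher and 4856 lower. Total counts moved the median of all genes to −0.54 on the log2 scale, no called gene changed direction, and changes are given below relative to the TMM median.

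**Figure D1:**
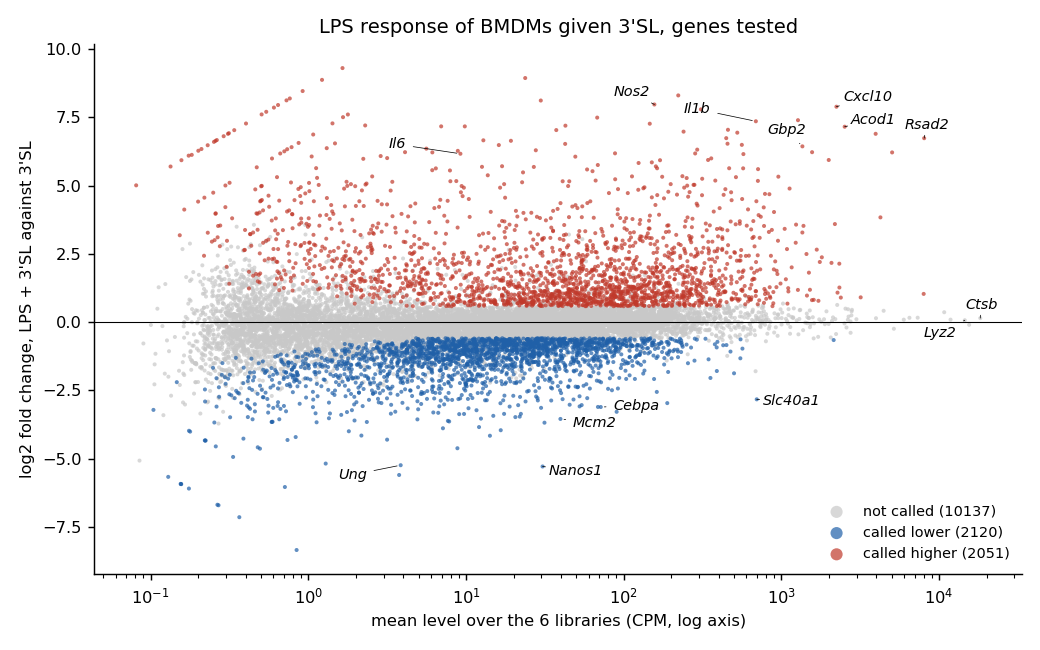
Change with LPS in the presence of 3′SL (vertical axis, log2 fold change) against the mean level in the 6 libraries (horizontal axis, CPM, log scale), 1 point per tested gene. The 2051 genes called higher reach further from 0 than the 2120 called lower. Another 10137 genes were not called, and the median of all genes tested was −0.07.

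The gene with the largest rise among abundant protein-coding genes was Serpina3f, a serpin protease inhibitor, at 0, 0.0398 and 0.239 CPM with 3′SL and 34.6, 46.5 and 61 CPM with LPS + 3′SL. Lipg, endothelial lipase, stood at 1.12, 0.955 and 2.11 CPM with 3′SL and 263, 278 and 786 CPM with LPS + 3′SL (log2 change 8.31, SE 0.74, adjusted p = 1.36e-05). Nos2, the inducible nitric oxide synthase (chr11:78920787-78960254, plus strand, GRCm38), was at 1.0, 0.955 and 1.75 CPM with 3′SL and 156, 184 and 595 CPM with LPS + 3′SL (log2 change 7.97, SE 0.69, adjusted p = 1.23e-05). The third LPS + 3′SL library was the highest for all 3 genes, and no library with 3′SL alone came near the lowest library with LPS. The rule that named them kept only genes whose libraries did not overlap. Cxcl10, a chemokine that interferons induce and that draws T cells, was at 11.2, 7.24 and 37.7 CPM with 3′SL and 3488, 3879.8 and 5982 CPM with LPS + 3′SL (log2 change 7.89, SE 0.82, adjusted p = 3.84e-05). Cd69, an early activation marker of leukocytes, was at 1.27, 2.03 and 5.01 CPM with 3′SL and 435, 534 and 875 CPM with LPS + 3′SL, Gbp4 at 0.260, 0.597 and 1.39 CPM with 3′SL and 88.8, 101 and 215 CPM with LPS + 3′SL and Gbp2b at 9.27, 7.04 and 28.7 CPM with 3′SL and 1833, 2164 and 3604 CPM with LPS + 3′SL, the latter both guanylate-binding proteins. In each of them the 3′SL library of set 3 was above the other two before LPS and the LPS + 3′SL library of set 3 was the highest. Tnfsf10, the death ligand TRAIL, rose by 7.27, Clic5, an intracellular chloride channel protein, by 7.17 and Heatr9 by 7.17 on the log2 scale. Among the genes called higher, 25 had no read in any 3′SL library, and the size fitted for these depends on the prior count.

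The promoters of 5 genes that rose by over 6 on the log2 scale are printed because they carry the letters searched for. They come from the cytokine, interferon and metabolic sides of the response and were not picked as typical of them. Each is the RefSeq window from 250 bases before to 50 bases after the transcript start in GRCm38.p6, 5′ to 3′ on the gene's strand. Capitals mark matches on either strand to an NF-κB core (GGANTTTCC), an interferon-stimulated response element (ISRE) core (GAAANNGAA) or an AP-1 site (TGANTCA). The windows are those of Cxcl10 (chr5:92348840-92349139, minus), Rsad2 (chr12:26456403-26456702, minus), Gbp2 (chr3:142620413-142620712, plus), Acod1 (chr14:103046762-103047061, plus) and Il6 (chr5:30012864-30013163, plus).
Cxcl10: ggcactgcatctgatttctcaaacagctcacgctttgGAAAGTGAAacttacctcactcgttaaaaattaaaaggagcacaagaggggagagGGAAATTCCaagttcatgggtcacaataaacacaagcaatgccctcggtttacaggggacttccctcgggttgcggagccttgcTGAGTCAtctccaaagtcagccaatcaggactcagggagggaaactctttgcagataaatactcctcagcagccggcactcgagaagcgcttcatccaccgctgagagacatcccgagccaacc
Rsad2: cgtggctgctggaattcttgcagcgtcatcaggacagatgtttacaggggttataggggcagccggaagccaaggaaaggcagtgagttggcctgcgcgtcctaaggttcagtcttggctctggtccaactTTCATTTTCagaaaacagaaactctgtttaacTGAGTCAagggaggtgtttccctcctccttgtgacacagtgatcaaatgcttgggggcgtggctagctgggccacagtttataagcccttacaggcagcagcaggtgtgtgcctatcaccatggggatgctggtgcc
Gbp2: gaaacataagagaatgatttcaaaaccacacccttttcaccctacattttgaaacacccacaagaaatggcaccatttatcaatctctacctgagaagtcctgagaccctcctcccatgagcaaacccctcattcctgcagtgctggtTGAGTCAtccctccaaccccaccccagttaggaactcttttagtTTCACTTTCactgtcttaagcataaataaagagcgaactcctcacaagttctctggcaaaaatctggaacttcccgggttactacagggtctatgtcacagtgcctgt
Acod1: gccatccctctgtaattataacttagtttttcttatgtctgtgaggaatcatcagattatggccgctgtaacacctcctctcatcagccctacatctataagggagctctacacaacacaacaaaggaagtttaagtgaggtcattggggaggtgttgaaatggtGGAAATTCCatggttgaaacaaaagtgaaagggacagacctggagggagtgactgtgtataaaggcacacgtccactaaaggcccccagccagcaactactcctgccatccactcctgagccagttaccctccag
Il6: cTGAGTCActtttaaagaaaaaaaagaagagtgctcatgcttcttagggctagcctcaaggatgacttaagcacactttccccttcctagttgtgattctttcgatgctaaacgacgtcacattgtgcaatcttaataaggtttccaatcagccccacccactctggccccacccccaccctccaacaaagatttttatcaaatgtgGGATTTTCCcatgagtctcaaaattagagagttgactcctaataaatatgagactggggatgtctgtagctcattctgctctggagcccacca
The Cxcl10 window held all 3 kinds of letters, with the ISRE core beginning at −213, the NF-κB core at −158 and the AP-1 site at −74 from the start. Rsad2 and Gbp2 held an ISRE core (−119 and −58) and an AP-1 site (−87 and −102), Il6 an AP-1 site at −249 and an NF-κB core at −43, and Acod1 the NF-κB core alone at −85.

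Promoter windows were available for 10089 of the tested genes (70.5%), 12857 windows in all. The ISRE core stood in 29.9% of the 194 windows of genes that rose at least 16-fold, 13.4% of the windows of all genes called higher, 5% of those called lower and 7.6% of all tested genes. The NF-κB core stood in 6.19%, 2.86%, 0.614% and 1.39%, and the AP-1 site in 18%, 6.99%, 5.24% and 5.48% of the same windows. For a sterol element (TCACNCCAC, searched on both strands) the shares were 0.515%, 1.17%, 1.09% and 1.13%. By gene list, the ISRE core was in 24 of 42 windows of type I interferon response genes and 8 of 9 windows of guanylate-binding proteins and immunity-related GTPases. Cytosolic ribosomal protein genes, of which 1 of 45 was called, held it in 10 of 41 windows, and costimulatory and MHC class I genes in 5 of 17 and 5 of 20. Of chemokine windows 4 of 17 held each of the 3 inflammatory motifs. The NF-κB core stood in 2 of 14 windows of interleukins and colony-stimulating factors. In prostaglandin, nitric oxide, arginine and itaconate enzymes, the list of Acod1, it stood in 1 of 18. A match is a match of letters in these windows and says nothing of binding, and some bases can belong to more than 1 match.

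Interleukins and colony-stimulating factors, the secreted messengers of the inflammatory response, were higher for 13 of 16 members tested and lower for none, with a median of 5.00 on the log2 scale. The median was 3.79 with a member that had no read in the 3′SL libraries set at its lower bound. Il1b, which encodes the fever-inducing cytokine interleukin-1β, was at 3.54, 3.58 and 17.9 CPM with 3′SL and 737, 1078 and 2293 CPM with LPS + 3′SL (log2 change 7.36, SE 0.84, adjusted p = 7.06e-05). Il6, whose product drives the hepatic acute phase response, was at 0.149, 0.159 and 0.437 CPM with 3′SL and 9.41, 15.4 and 29.8 CPM with LPS + 3′SL (log2 change 6.17, SE 0.59, adjusted p = 2.35e-05). Il12b, the shared subunit of interleukins 12 and 23, was at 0.372, 0.398 and 0.954 CPM with 3′SL and 69.3, 108 and 76.8 CPM with LPS + 3′SL (log2 change 7.20, SE 0.45, adjusted p = 2.13e-06). The libraries with and without LPS did not overlap for any of these genes, and the third library with 3′SL alone was the highest of its group in each. The rule for the largest changes had required this lack of overlap of Il1b and Il12b. Il1a, an alarmin released by damaged cells, was at 2.98, 1.75 and 6.56 CPM with 3′SL and 298, 336 and 793 CPM with LPS + 3′SL (log2 change 6.98, SE 0.61, adjusted p = 1.25e-05). Il33, another alarmin, had 1 read over the 3′SL libraries and 191 over the LPS + 3′SL libraries, a ratio of 242 with an exact 95% counting interval of 42.8 to 9590. Csf1, the growth factor of macrophages themselves, missed the test at 81.3, 7.08 and 25.4 CPM with 3′SL and 112, 49 and 84.3 CPM with LPS + 3′SL, and was called higher with the block at 1.51. Its 3′SL libraries spread widely and were highest in set 1, the set with the high stromal markers, whose part in the result was not tested.

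In the TNF superfamily 12 of 18 members tested were higher and 2 lower, with a median of 2.70. Tnf itself, which encodes the cytokine of septic shock, was at 23.8, 17.6 and 64.1 CPM with 3′SL and 459, 506 and 412 CPM with LPS + 3′SL (log2 change 3.71, SE 0.63, adjusted p = 0.00096). All LPS + 3′SL libraries lay above all 3′SL libraries, though the third 3′SL library was well above the other two. Cd40, the receptor through which T cells license macrophages, was at 6.66, 7.92 and 18.3 CPM with 3′SL and 518, 628 and 878 CPM with LPS + 3′SL (log2 change 5.94, SE 0.46, adjusted p = 6.86e-06), and Tnfsf15, the ligand TL1A, at 0.409, 0.119 and 0.119 CPM with 3′SL and 3.15, 4.09 and 5.58 CPM with LPS + 3′SL. Tnfrsf1b, the second TNF receptor, rose by 2.66 to 2894 ± 686 CPM and was named after its values were seen. Tnfrsf21, death receptor 6, fell by 1.39. Tnfrsf26 also fell, by 0.72 with an adjusted p of 0.0468 (edgeR), and lost its call in 7 of the 12 fits that each left out 1 library, at −0.72 to −0.57. Tnfrsf11a, the receptor RANK, was at 144, 150.3 and 180.5 CPM with 3′SL and 186, 184 and 199 CPM with LPS + 3′SL and was not called.

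Of 24 chemokines tested, the proteins that attract leukocytes, 18 were higher and 1 lower, with a median of 3.0. Cxcl11, like Cxcl10 a ligand of CXCR3, was at 0.0744, 0.159 and 0.398 CPM with 3′SL and 35.4, 34.8 and 108 CPM with LPS + 3′SL (log2 change 8.12, SE 0.86, adjusted p = 4.24e-05). Ccl17, a ligand of CCR4, had no read in any 3′SL library and stood at 1.60, 1.29 and 0.965 CPM with LPS + 3′SL, at least 11-fold higher against a floor of 3 counts in each 3′SL library. The neutrophil-attracting chemokines stood apart for their spread. Cxcl1 was at 0.893, 0.438 and 2.11 CPM with 3′SL and 7.04, 5.52 and 5.15 CPM with LPS + 3′SL (log2 change 2.36, SE 0.48, adjusted p = 0.00275), Cxcl3 at 1.45, 0.199 and 6.64 CPM with 3′SL and 11.2, 9.52 and 27.6 CPM with LPS + 3′SL (log2 change 2.54, SE 0.82, adjusted p = 0.032), and Cxcl2 at 4.76, 3.26 and 52.8 CPM with 3′SL and 68.2, 84.5 and 133 CPM with LPS + 3′SL. Cxcl2 was not called (log2 change 2.23, adjusted p = 0.106, edgeR), and the third 3′SL library lay close to the lowest LPS + 3′SL library. Without that library Cxcl2 was called higher at 4.58, as it was with the block at 2.91, and Cxcl3 lost its call without the first 3′SL library (2.23) or the third LPS + 3′SL library (1.91). Of the 24 chemokines, 4 had a change below 0 (3 called lower with total counts), and Cxcl14 was the 1 called lower after TMM. It was at 55.6, 53.5 and 142 CPM with 3′SL and 21.6, 20.5 and 28.6 CPM with LPS + 3′SL (log2 change −1.83, SE 0.51, adjusted p = 0.016). It lost its call without the third 3′SL library (−1.19) and without the first (−1.77) or the second (−1.74) LPS + 3′SL library. Ccl6 was expressed at a high level in all 6 libraries and was not called, at 780.3, 796 and 840.2 CPM with 3′SL and 735, 805 and 1018 CPM with LPS + 3′SL.

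Receptors for chemokines and other attractants were higher for 11 of 20 tested and lower for 1, with a median of 1.35. Fpr2 and Fpr1, receptors for formylated bacterial peptides, rose by 5.24 and 4.24, though 31.5% of the 50-base words of the Fpr2 transcripts also stand in other genes, so that its reads are uncertain. Ccrl2, an atypical receptor that binds chemerin, was at 5.58, 5.13 and 7.47 CPM with 3′SL and 143, 187 and 204 CPM with LPS + 3′SL (log2 change 4.87, SE 0.23, adjusted p = 7.46e-07). Cxcr4, which holds leukocytes in the bone marrow, was at 53.1, 49.4 and 17.9 CPM with 3′SL and 2.77, 3.59 and 4.61 CPM with LPS + 3′SL (log2 change −3.46, SE 0.48, adjusted p = 0.000267). Here the direction was opposite to the other called receptors, and the third 3′SL library was the lowest of its group. C5ar1, the receptor of the complement fragment C5a, stood at 998, 962 and 1363 CPM with 3′SL and 808, 803 and 743 CPM with LPS + 3′SL and was not called.

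NF-κB subunits and inhibitors were higher for 21 of 24 tested and lower for none, with a median of 1.92. This list also holds kinases and adaptors of the pathway, such as Ikbkb, Chuk, Traf1 and Traf2. Traf1, a signalling adaptor, was at 3.65, 1.87 and 8.75 CPM with 3′SL and 59.3, 71.3 and 138 CPM with LPS + 3′SL (log2 change 4.24, SE 0.54, adjusted p = 0.000153). Nfkbiz, a nuclear cofactor of NF-κB needed for secondary response genes, was at 9.67, 11.2 and 20.5 CPM with 3′SL and 167, 181 and 232 CPM with LPS + 3′SL (log2 change 3.81, SE 0.30, adjusted p = 6.95e-06), and Tnfaip3, the ubiquitin-editing inhibitor A20, at 42.3, 39.2 and 93.1 CPM with 3′SL and 373, 425 and 614 CPM with LPS + 3′SL (log2 change 3.02, SE 0.38, adjusted p = 0.000135). No library of either condition overlapped with the other in these genes. Ikbkg, the regulatory subunit NEMO, was at 111, 112 and 330.4 CPM with 3′SL and 122, 134 and 261 CPM with LPS + 3′SL and was not called, with the set 3 libraries above the others.

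AP-1, ATF, EGR and KLF factors were mixed, with 10 of 25 higher, 2 lower and a median of 0.36, which was −0.12 with total counts. Batf2 and Batf, AP-1 family partners of IRF factors, rose by 4.99 and 3.47, and Egr1, an immediate early factor, rose by 2.26 from 1.72 ± 0.717 to 8.26 ± 0.669 CPM (mean ± SD, n = 3). Atf5, a stress-responsive factor, fell by 1.47. Egr2 fell by 1.11 with an adjusted p of 0.0461 (edgeR), but the call was lost in 10 of the 12 fits that left out 1 library, and the change was −0.38 without the third 3′SL library. Atf4, the effector of the integrated stress response, was not called, at 194, 160.2 and 263 CPM with 3′SL and 167, 157 and 189 CPM with LPS + 3′SL.

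Feedback regulators of signalling and of cytokine mRNA were higher for 16 of 31 and lower for 4, with a median of 1.60. Socs3 and Socs1, inhibitors of cytokine receptor signalling, rose by 6.74 and 5.49, Socs3 from 8.27 ± 5.59 to 886 ± 416 CPM. Dusp2, a phosphatase of MAP kinases, was at 1.23, 0.875 and 1.67 CPM with 3′SL and 24.2, 32.4 and 75.7 CPM with LPS + 3′SL (log2 change 5.13, SE 0.62, adjusted p = 9.67e-05). Other phosphatases of the family differed from it. Dusp1 was at 30.6, 30.2 and 99.9 CPM with 3′SL and 117, 107 and 302 CPM with LPS + 3′SL and was not called (adjusted p = 0.0644, edgeR), becoming called at 2.53 without the third 3′SL library, at 1.71 without the third LPS library and at 1.77 with the block. Dusp3 fell by 1.46, and Dusp6, which acts on ERK and was named after its values were seen, fell by 0.85. The call of Dusp6 was lost in 9 of 12 fits that left out 1 library, and its change was −0.50 without the third 3′SL library. Gadd45a, a stress-response gene, and Zfp36l2, which binds AU-rich elements in mRNA, fell by 2.11 and 1.18.

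Toll-like receptors and LPS recognition genes were higher for 13 of 23 and lower for 1, with a median of 0.85. Tlr3, the sensor of double-stranded RNA, was at 15.1, 17.9 and 13.2 CPM with 3′SL and 268, 283 and 357 CPM with LPS + 3′SL (log2 change 4.29, SE 0.17, adjusted p = 5.28e-07), Tlr2, the receptor of lipoproteins, at 78, 76.7 and 185 CPM with 3′SL and 643, 704 and 844 CPM with LPS + 3′SL (log2 change 2.69, SE 0.40, adjusted p = 0.000422), and the adaptor Myd88 at 52.6, 49.3 and 78.8 CPM with 3′SL and 254, 291 and 414 CPM with LPS + 3′SL (log2 change 2.41, SE 0.26, adjusted p = 5.46e-05). Tlr5, the flagellin receptor, went the other way at 4.09, 2.90 and 3.22 CPM with 3′SL and 0.0485, 0.460 and 0.107 CPM with LPS + 3′SL (log2 change −3.99, SE 0.77, adjusted p = 0.00209). The 2 conditions did not overlap in any of the 4 genes. Cd180, a TLR4-related receptor, rose by 1.17. Unc93b1, the chaperone of the endosomal receptors, missed the test at 394, 403 and 578 CPM with 3′SL and 608, 691 and 1147 CPM with LPS + 3′SL (adjusted p = 0.0513, edgeR). It was called at 1.05 without the third 3′SL library, at 1.0 without the first LPS + 3′SL library, at 0.83 without the third PBS or the third LPS library and at 0.80 with the block.

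Among interferons and their receptors, kinases and IRF factors 13 of 18 were higher and 1 lower, with a median of 1.18. Ifnb1, interferon-β, had no read in any 3′SL library and was at 1.31, 2.53 and 3.48 CPM with LPS + 3′SL, at least 20.9-fold higher against a floor of 3 counts in each 3′SL library. Irf7, which amplifies interferon production, was at 42.5, 27 and 169 CPM with 3′SL and 997, 1149 and 2253 CPM with LPS + 3′SL (log2 change 4.21, SE 0.83, adjusted p = 0.00245), and the kinase Jak2 at 48.6, 50.5 and 78.8 CPM with 3′SL and 463, 531 and 845 CPM with LPS + 3′SL (log2 change 3.37, SE 0.29, adjusted p = 1.25e-05). All LPS + 3′SL libraries lay above all 3′SL libraries, and Irf7 was several times higher in the third 3′SL library than in the other two. Ifngr1, the ligand-binding chain of the interferon-γ receptor, fell by 0.95, and Il10rb, the shared chain of the interleukin-10 receptor, was not called at 176, 186 and 167 CPM with 3′SL and 187, 198 and 279 CPM with LPS + 3′SL.

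Type I interferon response genes, whose products restrict viruses, were higher for 48 of 48 tested, with a median of 3.87 and changes from 1.99 to 6.90. They were called higher with total counts as well, 48 of 48. Cmpk2, a mitochondrial nucleotide kinase, was at 44.4, 27.7 and 125 CPM with 3′SL and 6672, 6858 and 10044 CPM with LPS + 3′SL (log2 change 6.90, SE 0.75, adjusted p = 5.34e-05). Rsad2, the antiviral enzyme viperin, was at 81.5, 60.2 and 306 CPM with 3′SL and 12675, 13101 and 22059 CPM with LPS + 3′SL (log2 change 6.74, SE 0.86, adjusted p = 0.000145) and took the second highest CPM of all genes with LPS + 3′SL. Ifi205, an interferon-induced nuclear protein of the HIN-200 family, was at 5.14, 3.82 and 28 CPM with 3′SL and 741, 841 and 1749 CPM with LPS + 3′SL (log2 change 6.50, SE 1.02, adjusted p = 0.000566). In all 3 genes the third 3′SL library was several times above the other two, and still far below every LPS + 3′SL library. Guanylate-binding proteins and immunity-related GTPases, which attack vacuoles that hold pathogens, were higher for 13 of 13 with a median of 5.56. Iigp1 was at 5.84, 4.73 and 14.8 CPM with 3′SL and 859, 932 and 1335 CPM with LPS + 3′SL (log2 change 6.94, SE 0.60, adjusted p = 1.19e-05) and Gbp2 at 25.1, 15.4 and 52.3 CPM with 3′SL and 2074, 2445 and 3544 CPM with LPS + 3′SL (log2 change 6.44, SE 0.54, adjusted p = 9.57e-06).

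Of 23 enzymes of prostaglandin, nitric oxide, arginine and itaconate metabolism 8 were higher and 4 lower, with a median of 0.72. Acod1, which makes itaconate from a Krebs cycle intermediate, was at 18.2, 9.79 and 77 CPM with 3′SL and 4102, 4951 and 5966 CPM with LPS + 3′SL (log2 change 7.16, SE 0.80, adjusted p = 6.02e-05). Ptges, the inducible prostaglandin E synthase, was at 5.10, 2.67 and 9.78 CPM with 3′SL and 137, 116 and 213 CPM with LPS + 3′SL (log2 change 4.73, SE 0.49, adjusted p = 3.88e-05), and Ptgs2, the inducible cyclooxygenase 2, at 10.0, 3.70 and 26.5 CPM with 3′SL and 92.8, 124 and 249 CPM with LPS + 3′SL (log2 change 3.53, SE 0.69, adjusted p = 0.00223). Of the 4 members called lower, Ptgs1, cyclooxygenase 1, was at 34.1, 32.7 and 41.9 CPM with 3′SL and 13.7, 13.7 and 22.5 CPM with LPS + 3′SL (log2 change −1.12, SE 0.24, adjusted p = 0.00373). Hpgd, which degrades prostaglandins, fell by 1.17, Hpgds, the prostaglandin D synthase, by 0.87, and Alox5ap, the activator of 5-lipoxygenase named after its values were seen, by 0.82. The call of Hpgds was lost in 6 of 12 fits that left out 1 library, at −0.96 to −0.66. Tbxas1, thromboxane synthase, was not called at 197, 201 and 269 CPM with 3′SL and 182, 181 and 261 CPM with LPS + 3′SL.

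Acute phase and antimicrobial genes were higher for 8 of 17 (13 with the block) and lower for none, with a median of 1.51. Saa3, a serum amyloid A that macrophages make, was at 15.5, 4.77 and 12.8 CPM with 3′SL and 519, 691 and 912 CPM with LPS + 3′SL (log2 change 6.00, SE 0.51, adjusted p = 1.03e-05). Clec4e, the receptor Mincle, was at 22.8, 14 and 50.6 CPM with 3′SL and 780.0, 950.0 and 830.3 CPM with LPS + 3′SL (log2 change 4.87, SE 0.48, adjusted p = 2.64e-05). Cfb, complement factor B, had 2 reads over the 3′SL libraries and 175 over the LPS + 3′SL libraries, a ratio of 111 with an exact 95% counting interval of 30.2 to 921, and 73.0% of its 50-base words stand in other genes as well. Neutrophil markers, which share Camp and Ltf with the antimicrobial list, summed to 114, 189 and 212 CPM with 3′SL and 261, 419 and 916 CPM with LPS + 3′SL. Of 11 such markers Csf3r was the 1 called (5 were called with the block), and their part in these results was not tested. Lyz2, lysozyme, was not called at 13094, 14279 and 15233 CPM with 3′SL and 14097, 15442 and 15245 CPM with LPS + 3′SL.

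Costimulatory and checkpoint molecules were higher for 17 of 22 and lower for 2, with a median of 2.83. Cd274, the inhibitory ligand PD-L1, was at 29, 25.6 and 84.5 CPM with 3′SL and 1395, 1602 and 2605 CPM with LPS + 3′SL (log2 change 5.33, SE 0.55, adjusted p = 3.88e-05), and Il15ra, which presents interleukin-15 to lymphocytes, at 2.94, 2.59 and 5.09 CPM with 3′SL and 86.5, 107 and 194 CPM with LPS + 3′SL (log2 change 5.19, SE 0.41, adjusted p = 7.38e-06). Havcr2 (TIM-3) and Vsir (VISTA), both inhibitory receptors, fell by 1.98 and 1.32, Vsir from 288 ± 24.4 to 115 ± 11.5 CPM. Sirpa, the receptor of the CD47 signal, was not called at 1881, 2190.0 and 1311 CPM with 3′SL and 1903, 2142 and 1759 CPM with LPS + 3′SL. Genes of MHC class I presentation were higher for 18 of 21 and lower for none, with a median of 2.45. Nlrc5, the transactivator of class I genes, rose by 4.27, the peptide transporter Tap1 by 4.18 and the class I gene H2-T22, with 34.5% of its words shared, by 3.84. H2-D1, a classical class I gene, was not called at 1477, 1443 and 2396 CPM with 3′SL and 2064, 2333 and 3846 CPM with LPS + 3′SL, and was called higher with the block at 0.62. In class II presentation 2 of 14 genes were higher (7 with the block) and none lower, with a median of 0.61. With no block the share called was 14.3%, against 29.2% of all genes tested. The pair called with no block was March1, a ubiquitin ligase that removes class II molecules from the surface, at 2.40, and Rfx5, a factor of the class II promoters, at 1.46. Ctss, the protease that trims the invariant chain, was not called at 1735, 1851 and 2758 CPM with 3′SL and 2142, 2573 and 4241 CPM with LPS + 3′SL.

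Inflammasome and cell death genes were higher for 18 of 28 and lower for 3, with a median of 1.44. Casp4, the caspase that senses cytosolic LPS (caspase-11 in mice), was at 19, 16.8 and 19.2 CPM with 3′SL and 221, 253 and 351 CPM with LPS + 3′SL (log2 change 3.91, SE 0.22, adjusted p = 1.36e-06). Bcl2a1a and Bcl2a1d, survival proteins of the BCL2 family, rose by 5.06 and 4.15, but 69.0% and 79.5% of their 50-base words stand in other genes, so that reads cannot be told apart between the copies. Bcl2 itself, a related survival protein, fell at 15, 16.3 and 24.7 CPM with 3′SL and 2.67, 2.25 and 1.34 CPM with LPS + 3′SL (log2 change −3.15, SE 0.29, adjusted p = 1.75e-05). The inflammasome sensor Nlrp1b fell by 2.11 and Bcl2l11, the death protein BIM, by 0.75. Pycard, the inflammasome adaptor ASC, rose by 1.34 at 24.5, 31.1 and 17.7 CPM with 3′SL and 53, 60.6 and 71.5 CPM with LPS + 3′SL.

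Glycolysis and HIF-1 genes were higher for 11 of 25 and lower for none, with a median of 0.72. Pfkfb3, which makes the activator of phosphofructokinase, was at 40.3, 34.8 and 58.5 CPM with 3′SL and 232, 276 and 981 CPM with LPS + 3′SL (log2 change 3.48, SE 0.66, adjusted p = 0.00191), with the third LPS + 3′SL library the highest by far. Pfkl, a phosphofructokinase, and Bnip3, a mitophagy receptor, rose by 1.46 and 1.41. Pkm, pyruvate kinase, with 25.8% of its words shared, was not called at 1532, 1353 and 2462 CPM with 3′SL and 1605, 1595 and 2199.8 CPM with LPS + 3′SL. Of 38 respiratory chain and ATP synthase genes 0 were called by edgeR or DESeq2, 9 had an unadjusted p under 0.05, and the median was 0.16 (−0.32 with total counts). Atp5b, a catalytic subunit of ATP synthase, was at 536, 498 and 483 CPM with 3′SL and 593, 619 and 543 CPM with LPS + 3′SL. Of 45 cytosolic ribosomal protein genes 1 was called, Rpl10a, which was lower by 1.74 and shares 20.8% of its words with other genes. The median was −0.13, and 2 were lower without the second LPS + 3′SL library or with the block. With total counts 23 were called lower at a median of −0.60. Rpl4 was at 557, 569 and 531 CPM with 3′SL and 474, 496 and 451 CPM with LPS + 3′SL and was not called.

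Enzymes of sterol and fatty acid synthesis were higher for 0 of 27 and lower for 5, with a median of −0.15 and 21 of 27 changes below 0. The share called was 18.5%, where 29.2% of all genes tested were called and 14.8% were called lower. Among the 5 were Elovl6 and Fasn, which elongate and build fatty acids, at −1.58 and −0.90, and Dhcr7 and Sqle of the cholesterol pathway at −1.57 and −0.59. Sqle, the epoxidase of squalene, stood at 179, 154 and 198 CPM with 3′SL and 132, 122 and 99.7 CPM with LPS + 3′SL and lost its call in 7 of 12 fits that left out 1 library, at −0.58 to −0.48, while Fasn lost it in 9, at −0.94 to −0.68. The count of 5 fell to 3 without the first PBS, the first or the third 3′SL, the second LPS or the third LPS + 3′SL library. Hmgcs1, the HMG-CoA synthase of the cytosol, was at 238, 207 and 293 CPM with 3′SL and 289, 285 and 260.3 CPM with LPS + 3′SL, and Fdps, with 26.2% of its words shared, at 98.2, 94.6 and 90.8 CPM with 3′SL and 97.7, 99.1 and 83.1 CPM with LPS + 3′SL. Acat2, with 39.1% of its words shared with Acat3, was at 27.1, 24.9 and 14.4 CPM with 3′SL and 22, 20.5 and 17.8 CPM with LPS + 3′SL and Scd2, a desaturase of fatty acids, at 310.4, 241 and 265 CPM with 3′SL and 164, 108 and 36.9 CPM with LPS + 3′SL, and none of the 4 was called, Scd2 being called lower with the block at −1.68.

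Genes of sterol sensing and uptake and targets of the liver X receptors (LXR) were split, 6 of 25 higher and 5 lower, with a median of 0.14 (−0.36 with total counts). Ch25h, which makes the signalling oxysterol 25-hydroxycholesterol, was at 5.02, 2.67 and 3.98 CPM with 3′SL and 37, 33 and 94.9 CPM with LPS + 3′SL (log2 change 3.82, SE 0.73, adjusted p = 0.002). Nr1h3, LXRα, was at 10.4, 15.3 and 15.7 CPM with 3′SL and 55, 73.9 and 70.1 CPM with LPS + 3′SL (log2 change 2.26, SE 0.25, adjusted p = 5.34e-05), and its relative Nr1h2, LXRβ, was not called at 70.3, 73.8 and 85.1 CPM with 3′SL and 83.5, 94.9 and 117 CPM with LPS + 3′SL. The cholesterol exporters Abcg1 and Abca1 rose by 1.71 and 0.96, and Npc2 and Scap, which carry sterol in lysosomes and escort the SREBP factors, by 0.78 and 0.74. Lrp8, a lipoprotein receptor, was at 52.3, 44.1 and 177 CPM with 3′SL and 10.8, 11 and 19.9 CPM with LPS + 3′SL (log2 change −2.71, SE 0.49, adjusted p = 0.00141). Nceh1, a hydrolase of cholesterol esters, fell by 1.41, Mylip, which degrades the LDL receptor, by 1.34, Stard4, a carrier of cholesterol between membranes, by 0.93 and Npc1, the lysosomal cholesterol exporter, by 0.60. Npc1 lost its call without the second 3′SL or the third LPS + 3′SL library, at −0.56 both times. Abca1, Npc2, Scap and Npc1 were named after their values were seen. Apoe, apolipoprotein E, stood at 4169, 4384 and 8789 CPM with 3′SL and 4078, 4533 and 9891 CPM with LPS + 3′SL and was not called.

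ER chaperones and unfolded protein response genes were higher for 1 of 25, Sec23b of the COPII vesicle coat (0.89), and lower for 6, with a median of −0.18. The share called was 28%, against 29.2% of all genes tested. With total counts 14 were called lower at a median of −0.65. Trib3, a pseudokinase that ATF4 induces, was at 7.22, 5.41 and 9.03 CPM with 3′SL and 2.47, 1.52 and 1.93 CPM with LPS + 3′SL (log2 change −1.87, SE 0.29, adjusted p = 0.000494), Dnajb9, a cochaperone of BiP, fell by 1.02 and Herpud1, a part of ER-associated degradation, by 0.84. The count of 6 was 2 without the third 3′SL library and 3 without the first or the second LPS + 3′SL library, and Herpud1 lost its call in the same fits, at −0.62, −0.69 and −0.68. Hspa5, the chaperone BiP, was not called at 1989.8, 2029 and 3207 CPM with 3′SL and 2606, 2896 and 4004 CPM with LPS + 3′SL, and was called at 0.67 without the third 3′SL library.

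Lysosomal genes were higher for 7 of 35 and lower for 1, with a median of 0.17 (−0.32 with total counts). The share called was 22.9%, against 29.2% of all genes tested. Ctsc, which activates serine proteases of granules, was at 485, 547 and 717 CPM with 3′SL and 2299, 2626 and 4159 CPM with LPS + 3′SL (log2 change 2.38, SE 0.32, adjusted p = 0.00019), and the related factors Tfec and Mitf rose by 1.67 and 1.04. Atp6v0d2, a subunit of the proton pump, fell by 0.79. Ctsb, a cathepsin, was at 18126, 17288 and 16505 CPM with 3′SL and 18836, 19148 and 19604 CPM with LPS + 3′SL and was not called. Scavenger, C-type lectin and phagocytic receptors were higher for 14 of 34 and lower for 3 (5 with the block), with a median of 0.42 (−0.06 with total counts). Fcgr1, the high-affinity IgG receptor, was at 123, 109.6 and 227 CPM with 3′SL and 1169.8, 1271 and 2099.9 CPM with LPS + 3′SL (log2 change 3.31, SE 0.47, adjusted p = 0.000283). Timd4, a receptor of apoptotic cells, rose by 2.85 and Olr1, the receptor LOX-1, by 3.34, with Olr1 losing its call without the first (2.87) or the second (2.92) 3′SL or the third LPS + 3′SL library (2.66). Itgb5, an integrin of apoptotic cell uptake, Cd163, the hemoglobin scavenger receptor, and Scarb1, an HDL receptor, fell by 1.09, 0.90 and 0.62, and Scarb1 lost its call without the third LPS + 3′SL library (−0.51). Stab1 was not called at 3285, 3397 and 2663 CPM with 3′SL and 2735, 2571 and 1839 CPM with LPS + 3′SL.

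NRF2, oxidative stress and iron genes were higher for 6 of 29 and lower for 5, with a median of −0.05. The share called was 37.9%, against 29.2% of all genes tested. Sod2, the mitochondrial superoxide dismutase, was at 64.4, 57.7 and 126 CPM with 3′SL and 816, 934 and 1270.5 CPM with LPS + 3′SL (log2 change 3.61, SE 0.34, adjusted p = 2.12e-05), with 21% of its words shared, and Cybb, the catalytic subunit of the phagocyte oxidase, at 638, 773 and 853 CPM with 3′SL and 2936, 3334 and 3940.0 CPM with LPS + 3′SL (log2 change 2.17, SE 0.18, adjusted p = 1.06e-05). Slc40a1, the iron exporter ferroportin, was at 869, 1143 and 1657 CPM with 3′SL and 131, 165 and 222 CPM with LPS + 3′SL (log2 change −2.83, SE 0.27, adjusted p = 2.26e-05), and its libraries did not overlap. Gclc, which limits glutathione synthesis, was at 130.3, 145 and 729 CPM with 3′SL and 34.9, 39.7 and 54.3 CPM with LPS + 3′SL (log2 change −2.96, SE 0.61, adjusted p = 0.00314), and Nqo1, a quinone reductase, at 4.87, 4.02 and 40.8 CPM with 3′SL and 3.45, 3.17 and 3.32 CPM with LPS + 3′SL (log2 change −2.32, SE 0.73, adjusted p = 0.0298). Both were several times higher in the third 3′SL library than in the other two. Nqo1 lost its call without that library (−0.40) and without any of the LPS + 3′SL libraries (−2.35 to −2.29). Cat, catalase, at −1.07, and Tfrc, the transferrin receptor, at −0.77, were named after their values were seen. Cat lost its call without the third 3′SL library (−0.53), and Tfrc in 4 of 12 fits that left out 1 library, at −0.77 to −0.60. The zinc and iron importer Slc39a14 rose by 1.66, and lost its call without the first (1.58) or the second (1.39) 3′SL or the third LPS + 3′SL library (1.03). Fth1, ferritin heavy chain, was not called at 7422, 6969 and 13882 CPM with 3′SL and 10126, 11102 and 15198 CPM with LPS + 3′SL, and was called at 0.77 without the third 3′SL library. The list's count of 6 higher was 11 without the third 3′SL library and 3 without the first or the second.

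Integrins, proteases and coagulation genes were higher for 15 of 37 and lower for 3 (5 with the block), with a median of 0.59. Mmp14, a membrane-bound matrix protease, was at 23.5, 5.81 and 16.5 CPM with 3′SL and 369, 451 and 651 CPM with LPS + 3′SL (log2 change 5.00, SE 0.60, adjusted p = 9.65e-05), and Mmp13, a collagenase, at 54.4, 48.7 and 81.5 CPM with 3′SL and 745, 830.4 and 2405 CPM with LPS + 3′SL (log2 change 4.43, SE 0.60, adjusted p = 0.000218). Edn1, endothelin 1, was at 0.335, 0.119 and 0.119 CPM with 3′SL and 1.55, 3.13 and 6.75 CPM with LPS + 3′SL (log2 change 4.26, SE 0.85, adjusted p = 0.00264). Itga6, a laminin receptor chain, Plau, urokinase, and Itgb3 fell by 1.82, 1.79 and 1.68, Plau from 604 ± 199.7 to 175 ± 69.7 CPM. Adam8, a membrane protease, was not called at 2453, 2363 and 3468 CPM with 3′SL and 2133, 1943 and 3165 CPM with LPS + 3′SL.

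**Figure D2:**
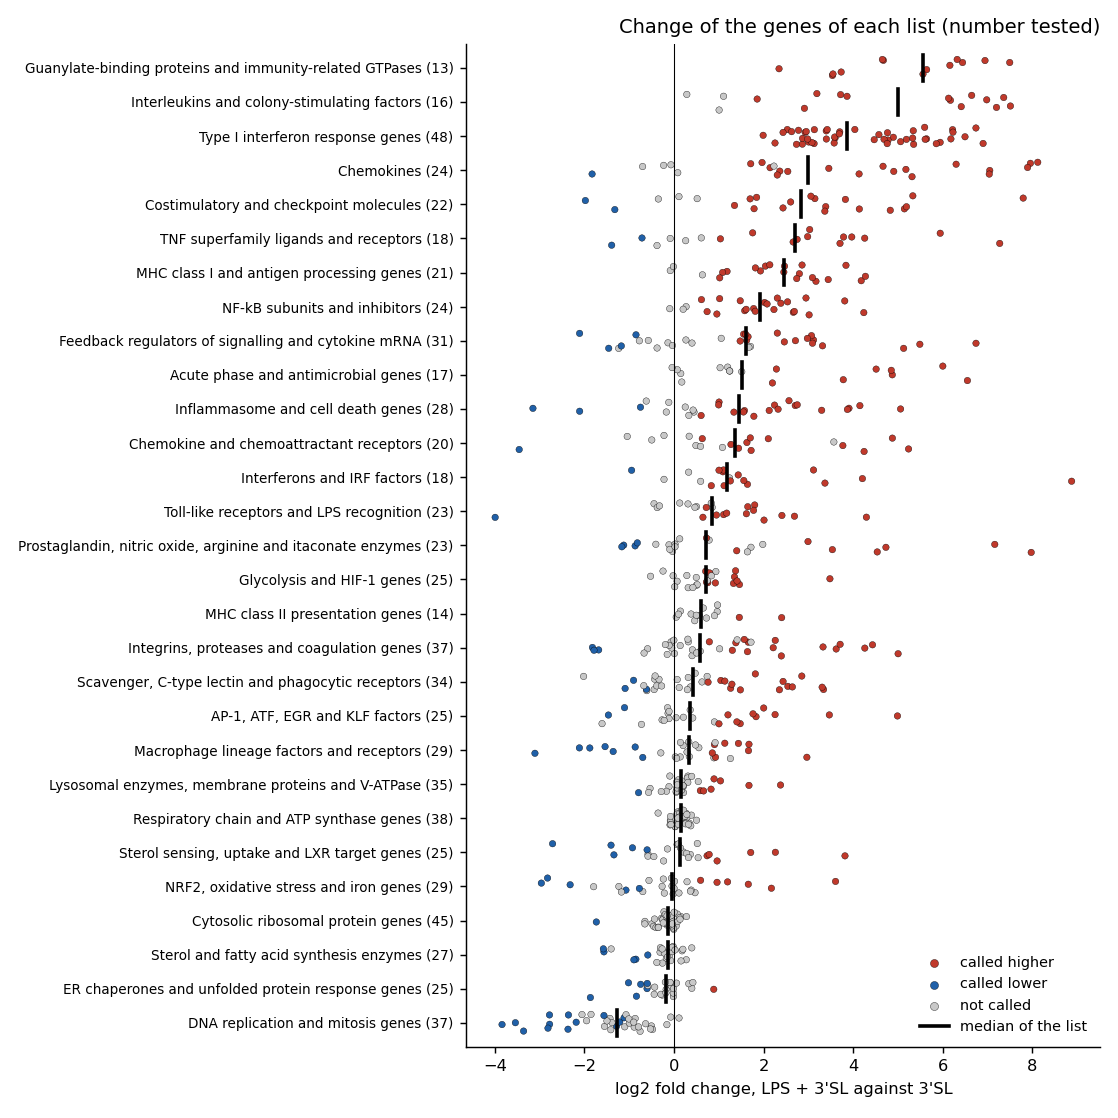
Log2 fold change with LPS in the presence of 3′SL (horizontal axis) for the tested members of each of 29 gene lists (rows), with a bar at the list median. Guanylate-binding proteins (5.56) and interleukins (5.00) stand at one end and DNA replication genes (−1.28) at the other.

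The largest fall among abundant protein-coding genes was that of Nanos1. This gene, an RNA-binding repressor of translation (chr19:60755987-60759914, plus strand, GRCm38), was at 46.6, 45.6 and 86.6 CPM with 3′SL and 1.31, 1.15 and 2.14 CPM with LPS + 3′SL (log2 change −5.28, SE 0.34, adjusted p = 2.51e-06). It had 1253, 1147 and 2178 reads with 3′SL and 27, 25 and 40 with LPS + 3′SL, and was the 1 gene that went from at least 1000 reads in every 3′SL library to at most 100 in every LPS + 3′SL library. Nptx1, a neuronal pentraxin, fell at 20.6, 19.2 and 11.1 CPM with 3′SL and 0.679, 0.782 and 0.590 CPM with LPS + 3′SL (log2 change −4.62, SE 0.33, adjusted p = 4.25e-06). Smpd3, the neutral sphingomyelinase 2, fell by 3.56, Dennd2c by 3.62 and Engase, a deglycosylating enzyme of the cytosol, by 3.64. The rule that named these genes kept only genes whose libraries did not overlap, so their lack of overlap is no separate result.

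DNA replication and mitosis genes were higher for 0 of 37 and lower for 13, with a median of −1.28 and 36 of 37 changes below 0. The share called was 35.1%, where 29.2% of all genes tested were called and 14.8% were called lower. With the library sets as a block 31 were called lower at a median of −1.27, and without set 1, in the fit with no block, 7. Mcm2, a subunit of the replicative helicase, was at 93.5, 104 and 21.9 CPM with 3′SL and 9.27, 6.53 and 2.95 CPM with LPS + 3′SL (log2 change −3.54, SE 0.61, adjusted p = 0.00103). Cdc6, which loads that helicase, was at 31.3, 30.0 and 6.48 CPM with 3′SL and 2.67, 1.33 and 0.697 CPM with LPS + 3′SL (log2 change −3.84, SE 0.72, adjusted p = 0.00182), and E2f2, a factor of the G1/S transition, at 22.4, 24.1 and 6.52 CPM with 3′SL and 1.36, 1.56 and 2.25 CPM with LPS + 3′SL (log2 change −3.36, SE 0.57, adjusted p = 0.000965). In these genes the third 3′SL library was several times below the other two. The 6 MCM helicase genes of the list were all among the 13. Pcna, the sliding clamp, was not called at 173, 180.0 and 176 CPM with 3′SL and 147, 158 and 199 CPM with LPS + 3′SL. Outside the list Ung, which removes uracil from DNA, was at 8.93, 11.7 and 1.91 CPM with 3′SL and 0.243, 0.322 and 0 CPM with LPS + 3′SL (log2 change −5.24, SE 0.85, adjusted p = 0.000723). Dtl, a ubiquitin ligase adaptor of S phase, fell by 4.16, Cdca7 by 3.89, Uhrf1, which maintains DNA methylation, by 3.68 and Rasgrp3, a RAS activator, by 3.96.

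Macrophage lineage factors and receptors were higher for 8 of 29 and lower for 7, with a median of 0.33 (−0.18 with total counts). Cebpa, a factor that myeloid progenitors need, was at 105, 102 and 177 CPM with 3′SL and 14.1, 12.1 and 18.5 CPM with LPS + 3′SL (log2 change −3.11, SE 0.27, adjusted p = 1.25e-05), and its libraries did not overlap. Bach2, a repressor, fell by 2.11 and Tgfbr1, a TGF-β receptor, by 1.88, the latter from 209 ± 37.4 to 56.8 ± 3.78 CPM. Csf3r and Csf2rb, chains of the G-CSF and GM-CSF receptors, rose by 2.97 and 1.66, and Cebpd by 1.67. Csf1r, the receptor of the macrophage growth factor, was not called at 2164, 2440.4 and 3552 CPM with 3′SL and 2212, 2540.1 and 3562 CPM with LPS + 3′SL.

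**Figure D3:**
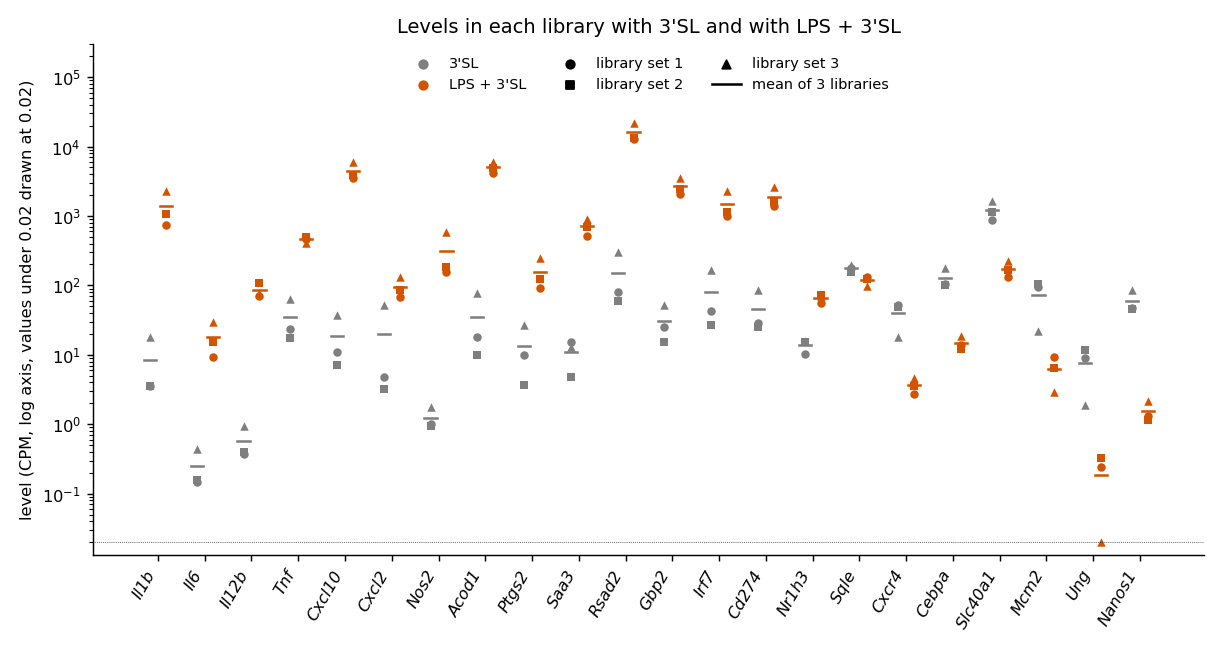
Level of 22 genes in each library with 3′SL and with LPS + 3′SL (CPM, log axis, values under 0.02 drawn at 0.02), with marker shapes for the 3 library sets. The LPS + 3′SL libraries lie above the 3′SL libraries for the inflammatory and interferon genes, as for Cxcl10, and below them for Nanos1, Cebpa and Mcm2.

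The genes with the highest CPM were largely the same with and without LPS. Ctsb, Ctsd, Lyz2, Psap and Fth1 were the 5 highest with 3′SL, and Ctsb, Rsad2, Ctsd, Lyz2 and Psap the 5 highest with LPS + 3′SL. Ctsd, a lysosomal protease with 32.4% of its words shared, was at 17074, 15969 and 15045 CPM with 3′SL and 15374, 15154 and 14518 CPM with LPS + 3′SL, and Psap, the precursor of the saposins, at 10946, 10931 and 12444 CPM with 3′SL and 11128, 10919.5 and 14591 CPM with LPS + 3′SL. Neither was called.

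The same response without 3′SL was measured in 6 other libraries, LPS against PBS, so that the 2 comparisons share no library. There 2613 genes were called higher (18.3%) and 2889 lower (20.2%). Of the risers 1934 were called in both comparisons, 94.3% of those with 3′SL and 74.0% of those without, and of the fallers 1836, which is 86.6% and 63.6%. No gene was called in opposite directions. Across the 14308 genes the 2 sets of log2 changes correlated at r = 0.916 and rho = 0.873, as a description over genes that are not independent. Of the 1934 shared risers 81.0% changed less with 3′SL, with medians of 1.64 with and 1.97 without, and of the 1836 shared fallers 75.8%, with medians of −1.19 and −1.42. The median difference of the shared risers was −0.30, −0.23 and −0.31 in the 3 library sets, and that of the shared fallers 0.20, 0.23 and 0.25.

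**Figure D4:**
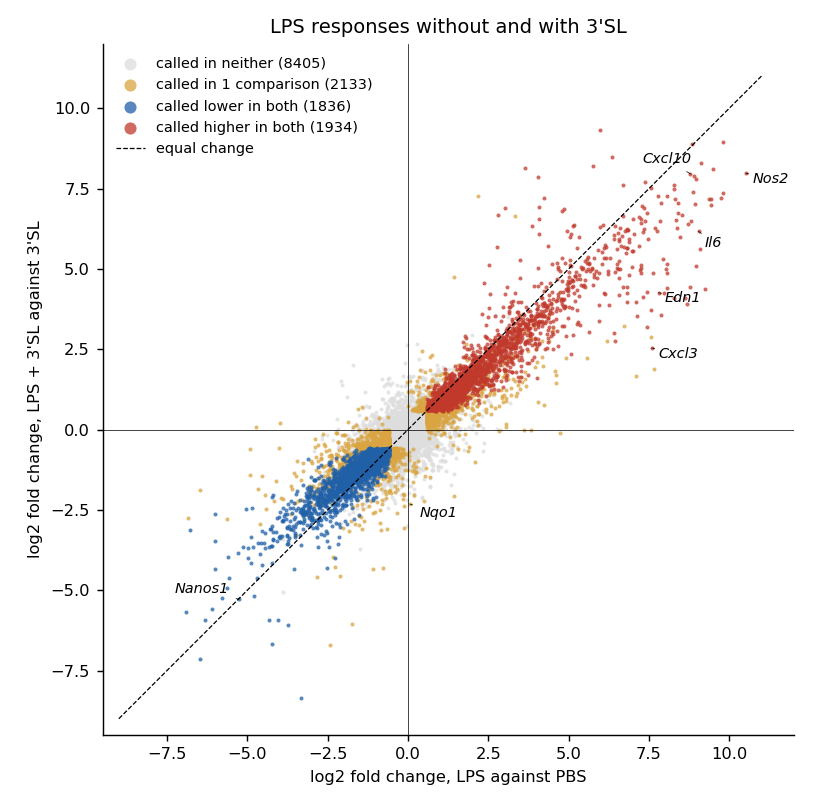
Log2 fold change with LPS in the presence of 3′SL (vertical axis) against that without 3′SL (horizontal axis), 1 point per tested gene, with a dashed line at equal change. The 1934 genes higher in both comparisons lie mostly under the line and the 1836 lower in both mostly above it.

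The test of the difference itself, the interaction of LPS and 3′SL in edgeR, called 0 genes (0%), with a lowest adjusted p of 0.309 and 872 genes (6.09%) at an unadjusted p under 0.05. DESeq2 called 44 (0.308%), and edgeR with the library sets as a block called 222 (1.55%). For the inflammatory genes compared in this paragraph the fitted rise was smaller with 3′SL than without. The study named Il6, Tnf, Edn1, Cxcl1, Cxcl3, Ptgs2 and Saa3 as repressed by 3′SL from its own RNA-Seq. For these genes the smaller rise follows in part from that choice and is no separate support. Cxcl2, which the study also named, was not called with 3′SL and is not compared here. For Il6 the change was 6.17 against 9.04, for Il1a 6.98 against 9.43, for Ptgs2 3.53 against 7.13, for Saa3 6.00 against 8.48 and for Edn1 4.26 against 7.80. The differences were −2.87, −2.45, −3.59, −2.48 and −3.54, none past the edgeR test. Tnf rose by 3.71 and 5.25, Cxcl1 by 2.36 and 5.07, and Cxcl3 by 2.54 and 7.59. Il1b rose by 7.36 and 9.80, Il12b by 7.20 and 9.73, and Nos2 by 7.97 and 10.52. These differences do not separate a higher level with 3′SL alone from a lower level with LPS + 3′SL. Over the fits that each left out 1 library, the change with 3′SL was 3.02 to 4.51 for Ptgs2. It was 1.91 to 4.27 for Cxcl3 and 5.62 to 6.84 for Il6. DESeq2 called the differences of Ptgs2, Saa3, Cxcl1 and Il12b, and edgeR with the block called those of Ptgs2, Saa3, Cxcl1, Cxcl3, Il1a, Il1b and Nos2. With the block, the interaction called 0 genes without set 2, 1 without set 1 and 457 without set 3, so that none of these block calls held without set 2.

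Sqle changed by −0.59 with 3′SL and −1.18 without, Stard4 by −0.93 and −1.38, Fdps by −0.02 and −0.43, and Nr1h3 by 2.26 and 2.10. Fabp4, a fatty acid–binding protein, changed by 1.08 and 0.32, Pycard by 1.34 and 0.64, Cd180 by 1.17 and 0.79, and C1qtnf12 by −0.02 and −0.55. From its own RNA-Seq the study named Fabp4, Pycard, Cd180 and C1qtnf12 as lowered by 3′SL without LPS. It named Sqle, Stard4 and Fdps as raised by 3′SL beside LPS. For all of these the difference follows in part from that choice and is no separate support. Lrp8, Hmgcs1, Scd2 and Acat2, which it also named as raised, are not compared here. By list, the median of chemokines was 3.0 with 3′SL and 4.95 without, that of type I interferon response genes 3.87 and 4.43, that of DNA replication genes −1.28 and −1.72, and that of sterol and fatty acid synthesis enzymes −0.15 and −0.45. The list medians were not tested.

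The genes with the smallest interaction p, 5 in each direction, are given as a description. With 3′SL and without it the changes were 1.52 and 2.57 for Lmo4, a transcriptional cofactor, 1.82 and 3.01 for Fam102b, and 2.39 and 3.53 for Gpd2, the mitochondrial glycerol-3-phosphate dehydrogenase. They were 0.46 and 1.39 for Stim2, a calcium sensor of the ER, and 0.98 and 1.94 for Slx4ip. Among genes with a difference above 0 they were −0.92 and −3.12 for Ydjc, −1.08 and −2.44 for Eya1, a transcriptional cofactor with phosphatase activity, and −0.72 and −1.62 for cyclin D1 (Ccnd1). They were −0.87 and −1.58 for Mgat5, which branches N-glycans, and −0.36 and −0.90 for the kinase Csnk1g2. Ydjc lost its call with 3′SL without the second 3′SL library (−0.86). In all 10 the change was smaller with 3′SL, and the adjusted p of the difference was 0.309 to 0.505 in edgeR.

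Among the genes whose change varied most between the 3 library sets were some in which 1 library of the 3′SL group stood apart. Cdcp1, a transmembrane protein, was at 0.819, 0.517 and 16.7 CPM with 3′SL and 0.243, 0.184 and 0.482 CPM with LPS + 3′SL, and its change was −1.47, −1.17 and −4.89 within the sets. It lost its call without that library (−1.13) and without any of the LPS + 3′SL libraries (−4.78 to −4.04). Cdkn2b, the cyclin-dependent kinase inhibitor p15, was at 5.84, 5.37 and 28.6 CPM with 3′SL and 2.86, 3.95 and 2.47 CPM with LPS + 3′SL and lost its call without the third 3′SL library (−0.84) or any of the LPS + 3′SL libraries (−2.31 to −1.96). Adamts4, a protease of aggrecan, varied the other way, at 1.86, 0.318 and 0.0795 CPM with 3′SL and 9.17, 6.90 and 6.92 CPM with LPS + 3′SL. Its first 3′SL library, from the set with the high stromal markers, was the highest of its group, and the change was 2.25, 4.12 and 5.43 within the sets.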

How the data were processed

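RNA-Seq libraries of mouse macrophages, 3 for each of the 4 conditions, were used as the authors deposited them, as raw counts of reads per gene, 1 file per library. The submitters' processing notes name FastQC, Trimmomatic, STAR, HTSeq and DESeq2. Versions, genome build and strand setting of the counting are not given in the sources used here. The labels describe the sequencing as stranded. If counting ignored strand, reads of overlapping genes on opposite strands would mix: of the 199 genes named, 11 have exons that overlap another gene on the same strand and 52 only on the other. HTSeq's rows for reads without a gene were left out of all totals. Gene names, types and positions came from GENCODE M21 (GRCm38.p6), which matched 42548 of 43626 gene identifiers.

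Counts of all 12 libraries were fitted together in edgeR 4.0.16 (R 4.3.3) with 1 mean per condition, filterByExpr, TMM factors (1.08 to 1.24 with 3′SL and 0.724 to 0.939 with LPS + 3′SL) and the quasi-likelihood F-test. A gene was called at a Benjamini-Hochberg adjusted p under 0.05 over the 14308 genes tested and a fold change of at least 1.5, the thresholds of the study. log2 CPM used a prior count of 2. The interaction was a contrast of the same fit. DESeq2 1.42.0 was an alternative, as were other scalings, filters and fold minimums, each library or library set left out in turn and the library sets as a block. The block with each set left out was chosen after the data were seen. The sets were found from the libraries' residuals, not from labels, and a block on them lowered the common biological coefficient of variation from 0.310 to 0.133. Replicates of a condition differed beyond sampling noise (chi-square per gene at least 15.6). The model code was tested on simulated data with known changes in 200 genes, over 5 runs. It recovered a median of 38.5% of 2-fold and 72.9% of 4-fold changes, with a median of 5 false calls. Far fewer genes changed in the simulation than the 4171 called in the data. These shares therefore do not give the recovery of the comparison itself. A gene not called may still have changed. Counting intervals and floors cover counting error only.

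The members and lists were chosen with earlier results of these data known. Of 877 entries in 29 function and 7 check lists, 5 (Mnda, Gbp5, Gbp6, Gbp10 and Emr1) were not used here. Genes were named by rule: the 12 largest called changes each way among protein-coding genes with no overlap and at least 5 CPM, up to 3 called members each way and 1 uncalled member per list, the 5 highest by CPM per condition, genes the study names for its RNA-Seq, the 5 smallest interaction p each way, and the 5 genes whose change varied most between sets. The 9 genes outside it are marked, and 1 gene that the rule takes is not reported here. Promoter windows came from RefSeq. Shared words are the share of a gene's 50-base stretches of transcript that occur in another gene.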

Additional observations from a re-analysis of the deposited data

Results flagged for a closer look

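Atf4 was singled out because its change had 1 sign in all 3 library sets with 3′SL and the other sign in all 3 without it. Its log2 change with LPS was −0.27 with 3′SL and 0.23 without, a difference of −0.50. Atf4 was called in neither comparison, and the edgeR interaction did not pass (adjusted p = 0.839). No other gene named above met this criterion.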

How the results depend on the processing

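Leaving out each of the 12 libraries in turn gave 3433 to 4387 called genes with 3′SL, 1734 to 2232 higher and 1685 to 2155 lower, 4665 to 5748 called without 3′SL, and 0 for the interaction. Total counts gave 1350 higher and 4856 lower in place of 2051 and 2120. A test against 1.5-fold (glmTreat) gave 2476 called and 1044 lower, and a 2-fold minimum 1321 lower. Without set 2 there were 2183 called, 1318 higher and 865 lower with 3′SL and 3516 called without it, and without set 1 1211 lower. The library sets as a block with total counts gave 7422 called and 5907 lower with 3′SL and 9098 called without it. The interaction called 0 genes in edgeR but 44 with DESeq2, 222 with the block, 136 with the block and total counts, 44 without set 3, and with the block 457 without set 3, 1 without set 1 and 0 without set 2. The cause of these differences was not tested, beyond fewer libraries where sets were left out. The labels give no replicate numbers, so the pairing by library set rests on the libraries' own residuals. The sets also match the order in which the samples are listed, in consecutive runs with 1 library of each condition. This block gave 5120 called with 3′SL, 2350 higher and 2770 lower, and 6378 without it, and changed the call of 6 of the named genes (Cxcl2, Dusp1, Csf1, Unc93b1, H2-D1 and Scd2, all called with it). Of the 199 named genes 130 kept their direction and side of the threshold under every alternative, and none reversed. Of the 29 list counts 10 stayed within 1.5 times under every alternative. With total counts the members called lower went from 5 to 12 for NRF2, oxidative stress and iron genes, from 5 to 8 for sterol and fatty acid synthesis, from 5 to 9 for sterol sensing and LXR targets, from 4 to 8 for feedback regulators, from 3 to 8 for scavenger receptors, from 3 to 6 for integrins and proteases, from 2 to 6 for AP-1, ATF, EGR and KLF factors and from 1 to 5 for lysosomal genes, and those called higher from 11 to 6 for glycolysis, 8 to 5 for macrophage lineage, 7 to 2 for lysosomal and 6 to 3 for sterol sensing genes.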
